A study of Mus musculus with 20 samples.

Results

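Nqo1, Nqo2, Xdh, Aox1 and Aox3 encode the quinone reductases and the xanthine and aldehyde oxidases, and their messenger RNA was read in 20 RNA-seq libraries of the mouse hepatoma line Hepa-1. The 5 genes were taken from the count table by Entrez gene ID, and all 5 of 5 were found among its 23373 gene IDs and among the 14343 genes with enough counts to be tested. They had been chosen by readers of earlier results on the same libraries, which included the response of control-grown cells to benzo[a]pyrene (B[a]P). Values of that response are therefore given as descriptions without a test, and tests are kept to libraries of chromium-grown and recovered cells or are named as sharing the control libraries.

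The cells were grown in medium with 5% serum, and the study asked how long growth with hexavalent chromium, Cr(VI), bears on the response to B[a]P, a combustion product. The 10 groups held 2 libraries each. At passage 20, control-grown cells (no Cr(VI)) and Cr(VI)-grown cells (20 passages with Cr(VI)) each got the solvent DMSO or B[a]P for 8 hours. At passage 25 there were control-grown cells, Cr(VI)-grown cells (25 passages with Cr(VI)) and recovered cells, kept for 20 passages with Cr(VI) and for a further 5 in its absence, under the same DMSO and B[a]P treatments. Concentrations are printed in the labels as 0.5 mM (Cr(VI)) and 5 mM (B[a]P), and whether the unit was meant as printed is unsure. Titles of the passage 25 samples read 27. The labels do not say whether duplicates were separate cultures, so a p-value here reflects only how far these libraries spread. Libraries of passage 20 and passage 25 also carry sample names of different series, so passage and library set cannot be told apart. Hepa-1 is a tumour-derived liver line, and it is the only line in the study.

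NQO1 is a flavoenzyme that reduces quinones by transfer of an electron pair from NADH or NADPH, and its gene is a known target of the aryl hydrocarbon receptor (AHR), which B[a]P activates, and of the oxidative stress factor NRF2. NQO2 is its paralog and takes electrons from dihydronicotinamide riboside in place of NADPH. XDH oxidises hypoxanthine and xanthine to uric acid, and AOX1 and AOX3 oxidise aldehydes and nitrogen heterocycles. These oxidases carry a molybdenum cofactor, iron-sulfur clusters and FAD, and can pass electrons to oxygen. In the mouse the aldehyde oxidase genes stand in a row, and AOX3 is known as the form typical of liver.

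On GRCm38.p6, Nqo1 (ID 18104) spans chr8:107388225-107403205 on the minus strand and Nqo2 (ID 18105) chr13:33964655-33988465 on the plus strand. Xdh (ID 22436) spans chr17:73883895-73950397 on the minus strand. Aox1 (ID 11761) at chr1:58029809-58106410 and Aox3 (ID 71724) at chr1:58113135-58202221 are neighbours on the plus strand. Their longest coding transcripts in GENCODE M21 have 6 exons for Nqo1, 7 for Nqo2, 36 for Xdh and 35 each for Aox1 and Aox3. The coding sequences of Aox1 (3999 bases) and Aox3 (4005 bases) were identical at 2806 of 3772 aligned bases (74.4%). Xdh (4005 bases) was identical to Aox1 at 2612 of 3498 (74.7%). Bases opposite gaps are not in these percentages, so Xdh and Aox1 had fewer identical bases than Aox1 and Aox3. No window of 36 bases in any of the 5 transcripts occurred in another of them. Aox2 and Aox4, the other genes of that row, had at most 3 and 10 counts in any library and were not tested.

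Upstream sequence is shown for Nqo1 and Aox3, which rose with B[a]P in the tests below, for Nqo2, a paralog that did not pass, and for Aox1 around the 1 match found. The bases come from the RefSeq promoter table (GRCm38.p6), which was matched for 4 of the 5 genes, and are written 5′ to 3′ on the strand of the gene. Xdh, which also rose with B[a]P in Cr(VI)-grown cells, had no entry there and was not searched. Annotated exons and the gene span are left out, except for the Aox1 bases, which lie inside the gene span. Capitals mark the xenobiotic response element core GCGTG, searched on both strands, and no other letters are in capitals.
Nqo1, chr8:107403207-107403455, minus strand: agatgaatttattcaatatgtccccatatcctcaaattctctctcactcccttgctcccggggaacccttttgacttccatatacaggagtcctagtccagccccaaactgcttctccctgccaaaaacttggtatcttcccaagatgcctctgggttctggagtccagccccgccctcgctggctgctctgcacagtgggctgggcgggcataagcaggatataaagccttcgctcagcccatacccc
Nqo2, chr13:33964409-33964654, plus strand: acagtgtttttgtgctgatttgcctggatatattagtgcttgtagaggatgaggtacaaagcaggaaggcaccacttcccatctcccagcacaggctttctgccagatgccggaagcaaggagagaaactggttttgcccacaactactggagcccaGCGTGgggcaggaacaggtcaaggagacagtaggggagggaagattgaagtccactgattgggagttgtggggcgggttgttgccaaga
Aox3, chr1:58112886-58113129, plus strand: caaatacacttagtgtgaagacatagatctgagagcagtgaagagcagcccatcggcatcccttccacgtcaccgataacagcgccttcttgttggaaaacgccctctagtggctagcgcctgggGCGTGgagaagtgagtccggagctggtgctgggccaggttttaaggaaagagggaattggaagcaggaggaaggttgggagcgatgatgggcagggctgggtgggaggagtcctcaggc
Aox1, chr1:58029822-58029846, plus strand: gcttgtctccCACGCtggcacactc

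In the 250 bases before the start of transcription, GCGTG lay 93 to 89 bases before the start of Nqo2 and further out before that of Aox3, both on the strand of the gene. A second Nqo2 start in the table had it at 137 bases. In Aox1 the match lay 137 to 133 bases before the start given in the promoter table. It is on the opposite strand and reads CACGC on the strand of the gene. The match falls inside the gene span of RefSeq, after its first base and so not upstream of that span. Only 25 bases around it are shown. These letters were not in the window of Nqo1. The core is short, and 28.2% of all 32851 promoters in the table held it in a window of this length. The antioxidant response element core TGACNNNGC, searched on both strands, was in none of these windows and in 10.2% of all promoters.

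Total counts per library were 20976045 to 37930720. At passage 25 the 6 libraries of replicate 2 stood apart from those of replicate 1: their 100 most counted genes took 29.6% to 34.3% of counts against 15.7% to 26.0%. They had counts for 14776 to 15329 genes, and replicate 1 for 16049 to 17173. At passage 20 the 2 libraries of Cr(VI)-grown cells with DMSO differed by over 2-fold in 32.2% of genes, against 1.6% to 2.4% in the other 3 groups. Hepatocyte and hepatoma markers were mixed. Alb (826 to 5698 CPM, counts scaled to a common library size) and Afp (102 to 334 CPM) were high, while 4 of 12 stayed below 1 CPM in every library, among them Hnf4a (at most 0.39 CPM) and Apoa1 (at most 0.069 CPM). The summed level was 20.1 to 59.4 CPM for 4 macrophage markers, with Ptprc at most 0.12 CPM, and 0.043 to 1.37 CPM for 3 endothelial markers, with Cdh5 at most 0.046 CPM. It was 217 to 896 CPM for 5 stellate and fibroblast markers, mostly from Col1a1 and Pdgfrb, and 293 to 1999 CPM for 3 cholangiocyte markers, mostly from Krt7, with Epcam at most 0.32 CPM. None of the markers tested passed in either B[a]P comparison below.

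**Figure D1:**
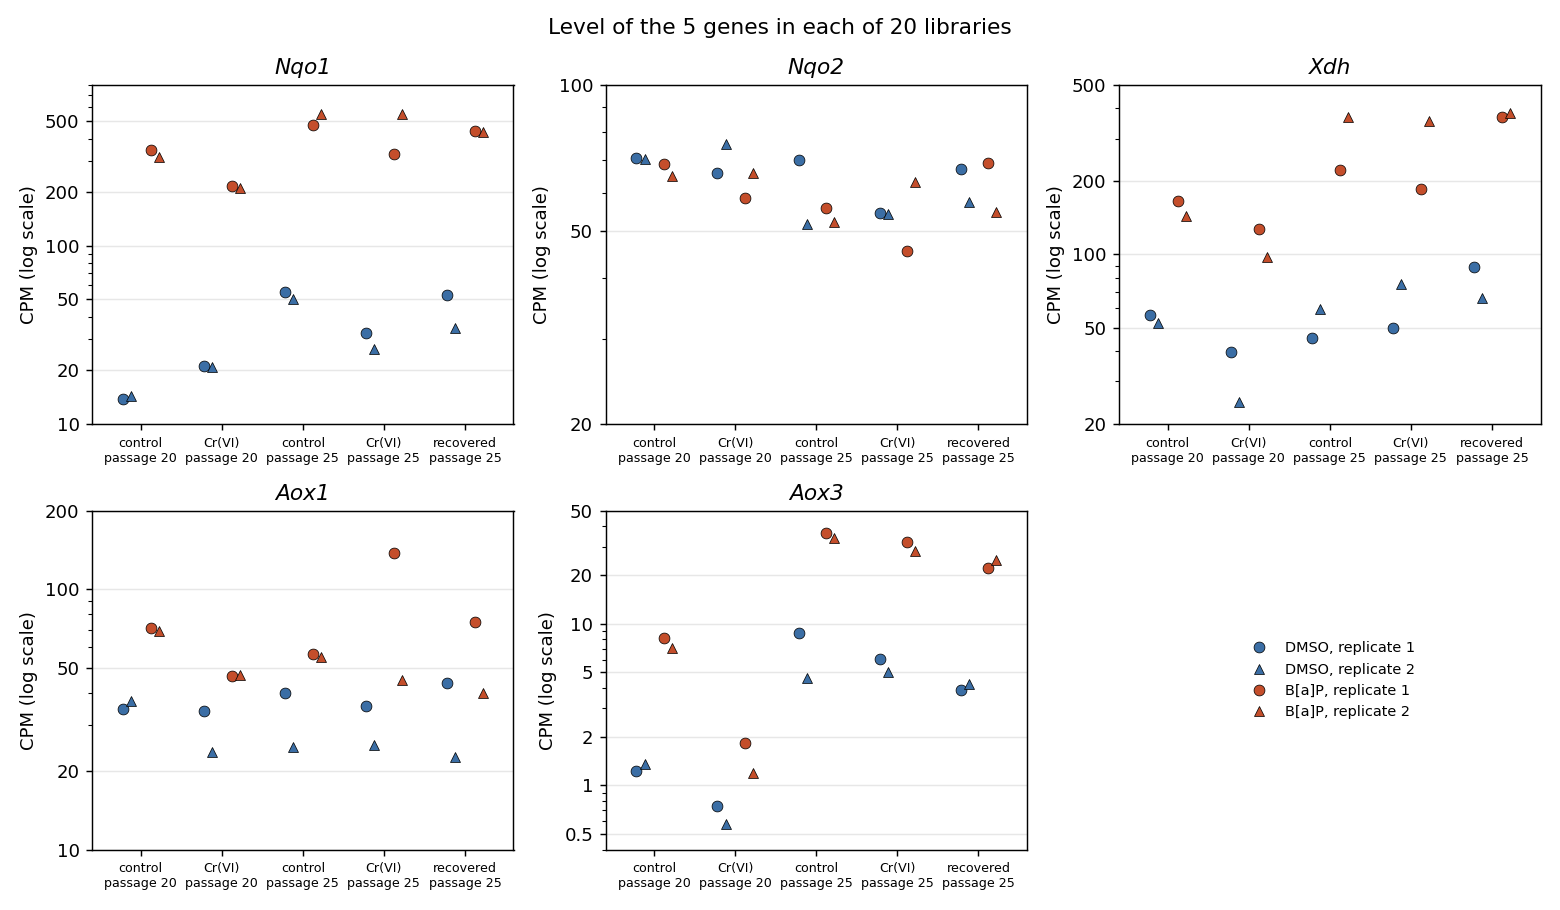
Level of each gene (CPM, log axis, own range per panel) in the 20 libraries, by growth history and passage on the x axis, with DMSO in blue and B[a]P in red, and circles for replicate 1 and triangles for replicate 2. The B[a]P libraries of Nqo1 (210 to 550 CPM) and Xdh (97.9 to 385 CPM) lie above every DMSO library, while those of Nqo2 (45.4 to 69.1 CPM) overlap with the DMSO range of 51.8 to 75.5 CPM.

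Nqo1 had the highest fold change of the 5 with B[a]P in each growth history and passage. In control-grown cells it had 13.8 and 14.4 CPM with DMSO and 344 and 314 CPM with B[a]P at passage 20, and 55.4 and 50.1 CPM with DMSO and 479 and 550 CPM with B[a]P at passage 25. These levels were known when the genes were chosen. The fold change was 23.3 at passage 20 (log2 4.54 ± 0.35, SE) and 9.75 at passage 25 (log2 3.29 ± 0.33), over a DMSO level that was higher at passage 25.

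In Cr(VI)-grown cells at passage 20 Nqo1 went from 21.2 and 21.0 CPM with DMSO to 217 and 210 CPM with B[a]P. At passage 25 it went from 32.3 and 26.2 CPM to 326 and 548 CPM. Every B[a]P library was above every DMSO library, and the duplicates were close except for the B[a]P pair of passage 25. Over both passages Nqo1 rose 12.3-fold (log2 3.62 ± 0.24, 4 against 4 libraries, adjusted p = 1.35e-05), the 15th highest log2 fold change of the 14343 genes tested. In these bulk libraries a change in the number of cells that express a gene and a change in RNA per cell cannot be told apart.

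In recovered cells Nqo1 had 52.8 and 34.6 CPM with DMSO and 443 and 438 CPM with B[a]P. It rose 10.1-fold (log2 3.33 ± 0.33, 2 against 2 libraries, adjusted p = 0.00110). Without replicate 2 of the recovered DMSO cells, the lower of that pair, adjusted p was 0.0566.

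Nqo2, the paralog, did not pass in either comparison with B[a]P. Its level was 51.8 to 75.5 CPM in the 10 DMSO libraries and 45.4 to 69.1 CPM in the 10 B[a]P libraries, and these ranges overlapped. Within passage 20 its B[a]P libraries lay slightly below the DMSO libraries of the same growth history. In control-grown cells, described only, they had 68.7 and 64.9 CPM against 70.8 and 70.5 CPM, and 39% of all genes tested lay below in the same way. In Cr(VI)-grown cells they had 58.6 and 65.79 CPM against 65.94 and 75.5 CPM, and 16.2% of all genes lay below. At passage 25 the groups overlapped in control-grown, Cr(VI)-grown and recovered cells. In Cr(VI)-grown cells of both passages the log2 fold change with B[a]P was -0.09 ± 0.19 (95% interval -0.49 to 0.31, adjusted p = 0.999). In recovered cells it was -0.01 ± 0.26 (95% interval -0.58 to 0.56, adjusted p = 1). The intervals leave out a change of 2-fold in either direction, but not all smaller ones.

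The ratio of the paralogs' counts within a library does not depend on library scaling. Nqo1 to Nqo2 was 0.196 to 0.968 in the DMSO libraries and 3.20 to 10.6 in the B[a]P libraries. Nqo2 thus had the higher count in each DMSO library and Nqo1 in each B[a]P library. With DMSO the ratio was 0.196 and 0.205 in control-grown cells of passage 20 and 0.791 and 0.968 at passage 25. Nqo2 itself had 70.8 and 70.5 CPM in the former and 70.0 and 51.8 CPM in the latter.

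Xdh was raised in Cr(VI)-grown cells by B[a]P. At passage 20 it had 39.6 and 24.6 CPM with DMSO and 128 and 97.9 CPM with B[a]P. At passage 25 it had 49.8 and 75.8 CPM with DMSO and 186 and 355 CPM with B[a]P. The 4 B[a]P libraries lay above the 4 DMSO libraries, although the B[a]P duplicates of passage 25 were far apart. Xdh rose 3.89-fold over both passages (log2 1.96 ± 0.28, adjusted p = 0.00586). Adjusted p was 0.0533 without the first of the passage 25 libraries of Cr(VI)-grown cells with DMSO.

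In recovered cells Xdh had 89.1 and 66.2 CPM with DMSO and 369 and 385 CPM with B[a]P. The groups were far apart, at 4.85-fold (log2 2.28 ± 0.41), but adjusted p was 0.0821. With the replicate number as a block, adjusted p was 0.00128, and with DESeq2 it was 2.32e-05. In control-grown cells, described only, Xdh went from 56.4 and 52.2 to 166 and 145 CPM at passage 20 and from 45.3 and 59.5 to 224 and 369 CPM at passage 25. That was 2.86-fold and 5.66-fold.

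Aox1 had the smaller estimated fold change of the aldehyde oxidase pair, and it did not pass in the edgeR fit without the replicate block. In Cr(VI)-grown cells it had 34.1 and 23.7 CPM with DMSO and 46.6 and 46.8 CPM with B[a]P at passage 20. At passage 25 it had 35.8 and 25.3 CPM with DMSO and 138 and 44.7 CPM with B[a]P. The library with 138 CPM was above the other 19, which had at most 74.5 CPM. Its group differed by over 2-fold between duplicates in 56.7% of genes, and the other 5 groups of passage 25 in 21.0% to 54.1%. The part of these duplicate differences in the Aox1 value was not tested.

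Over both passages the log2 fold change of Aox1 was 1.14 ± 0.35 (95% interval 0.37 to 1.90), with an adjusted p of 0.207 that did not pass. Without the library with 138 CPM it was 0.62, with adjusted p = 0.601. Adjusted p was 0.00455 with the replicate block, 0.0403 with DESeq2, and 0.0185 without the replicate 2 libraries of passage 25. In recovered cells Aox1 had 43.5 and 22.7 CPM with DMSO and 74.5 and 39.9 CPM with B[a]P. These groups overlapped across replicate numbers, while within each number B[a]P was higher by 1.71-fold and 1.76-fold. The log2 fold change was 0.79 ± 0.50 (adjusted p = 1). In control-grown cells, described only, Aox1 went from 34.7 and 37.2 to 71.2 and 69.3 CPM at passage 20 and from 40.0 and 24.8 to 56.6 and 54.8 CPM at passage 25.

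Aox3 was the least counted of the 5 and differed most between library sets. In Cr(VI)-grown cells of passage 20 it had 0.742 and 0.581 CPM with DMSO (28 and 14 counts) and 1.82 and 1.20 CPM with B[a]P (53 and 40 counts). At passage 25 it had 6.05 and 4.99 CPM with DMSO and 31.9 and 28.3 CPM with B[a]P. B[a]P libraries were higher within each passage, yet those of passage 20 lay below the DMSO libraries of passage 25. Aox3 rose 3.51-fold over both passages (log2 1.81 ± 0.25, adjusted p = 0.00457).

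In recovered cells Aox3 had 3.90 and 4.22 CPM with DMSO and 22.2 and 24.9 CPM with B[a]P. It rose 5.79-fold (log2 2.53 ± 0.35, adjusted p = 0.0217), and the groups did not overlap. Leaving out any 1 of these 4 libraries put adjusted p between 0.0797 and 0.383, at log2 values of 2.45 to 2.61. In control-grown cells, described only, Aox3 went from 1.22 and 1.35 to 8.18 and 7.04 CPM at passage 20 and from 8.75 and 4.63 to 36.4 and 33.7 CPM at passage 25.

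Of the 5 genes, 3 passed for B[a]P in Cr(VI)-grown cells, all higher, against 0.941% of all genes tested (135 of 14343, 69 higher and 66 lower). The 5 were chosen with the B[a]P response of control-grown cells known, so their share is no test of enrichment, here or in recovered cells. How many of all genes lay above without overlap with B[a]P was not counted. With the replicate block 1620 genes passed, with DESeq2 470, and 27 to 90 when any 1 of the 8 libraries was dropped. In recovered cells 2 of the 5 passed, both higher, against 0.0558% of all genes (8 of 14343, 7 higher and 1 lower). Among the others in recovered cells were Cyp1a1, Cyp1a2, Bmf and Arhgap10, which rose, and Fhod3, which fell. With the block 215 genes passed there, with DESeq2 103, and 0 to 5 when 1 of the 4 libraries was dropped.

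**Figure D2:**
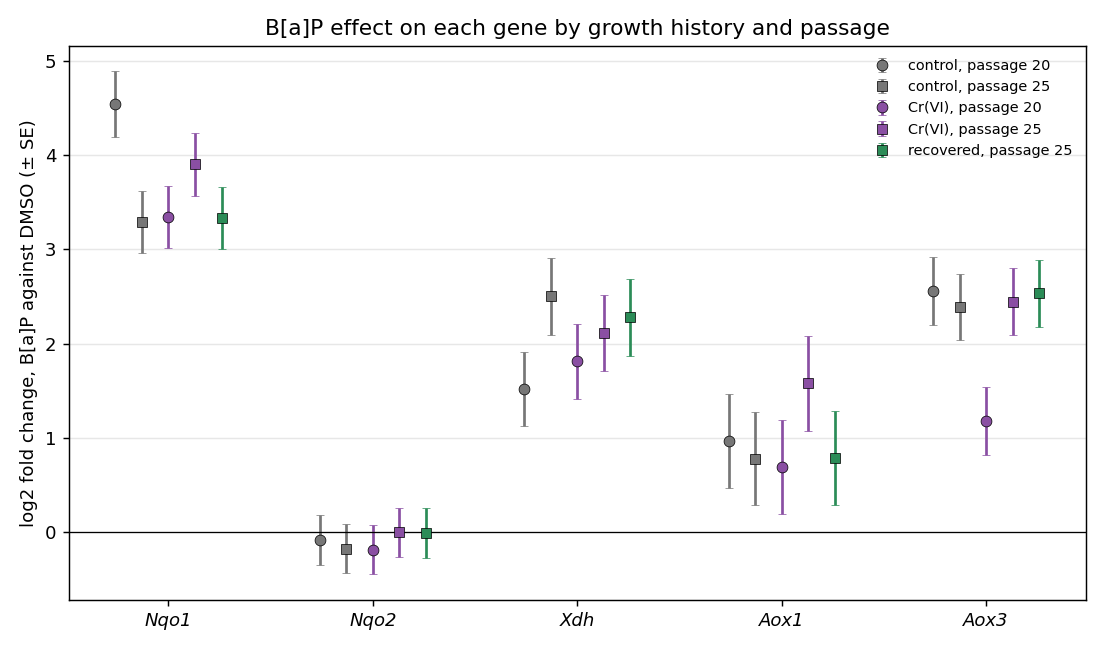
Log2 fold change of each gene with B[a]P against DMSO (y axis, bars are SE) by growth history and passage, 2 against 2 libraries per point. Nqo1 lies between 3.29 and 4.54 and Nqo2 between -0.19 and 0.00, and the Cr(VI)-grown cells of passage 20 have the lowest value for Aox3, 1.18.

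Whether the B[a]P response of Cr(VI)-grown cells differed between the library sets was tested as passage 25 minus passage 20. None of the 5 genes passed, and 0% of all genes did (0 of 14343 with edgeR, 152 at an unadjusted p under 0.05, 0 with DESeq2). The largest difference among the 5 was that of Aox3, whose B[a]P response was log2 1.18 ± 0.36 at passage 20 and 2.44 ± 0.35 at passage 25. Its difference was 1.27 ± 0.49 (95% interval 0.20 to 2.33, unadjusted p = 0.0232, adjusted p = 1), while the median over all genes was 0.18. Values for the others were 0.89 ± 0.70 for Aox1, 0.56 ± 0.43 for Nqo1, 0.30 ± 0.55 for Xdh and 0.18 ± 0.37 for Nqo2.

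The response of recovered cells was set against that of Cr(VI)-grown cells at passage 25 in the same way. Again none of the 5 genes passed and 0% of all genes did (0 with edgeR, 38 at an unadjusted p under 0.05, 0 with DESeq2). The difference was 0.09 ± 0.47 for Aox3 (95% interval -0.93 to 1.11) and 0.17 ± 0.55 for Xdh. It was -0.57 ± 0.43 for Nqo1 (95% interval -1.48 to 0.35) and -0.79 ± 0.70 for Aox1, with the high Aox1 library in the group subtracted. The intervals of these 4 genes include differences of 2-fold, so responses of equal size were not shown. These intervals come from the fit without the replicate block, although the replicate numbers pair the libraries of passage 25. With the block 543 genes had an unadjusted p under 0.05 and 0 passed.

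Growth with Cr(VI) was compared in cells that had DMSO alone, which shares its control libraries with the response known beforehand. Averaged over both passages, none of the 5 genes passed and 0% of all genes did (0 with edgeR, 685 at an unadjusted p under 0.05, 14 with DESeq2, 531 with the replicate block). Aox3 had the lowest value, log2 -0.62 ± 0.25 (unadjusted p = 0.0262, adjusted p = 0.895). The DMSO levels of Aox3 in Cr(VI)-grown cells lay below those of control-grown cells at passage 20, as did 25.2% of all genes tested. At passage 25 the Aox3 levels overlapped. For the other 4 genes log2 values were -0.25 to -0.08.

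The average hid opposite positions of Nqo1 in the library sets. At passage 20 its DMSO level was 21.2 and 21.0 CPM after growth with Cr(VI) against 13.8 and 14.4 CPM, a log2 difference of 0.58 ± 0.30. At passage 25 it was 32.3 and 26.2 CPM against 55.4 and 50.1 CPM, a log2 difference of -0.85 ± 0.30. The groups did not overlap at either passage. How many of all genes separate in these directions was not counted. At passage 20, 25.2% lay below without overlap, which is the side opposite to that of Nqo1. The reversal of Nqo1 was not tested. Nqo2 showed no such pattern, since its groups overlapped at both passages.

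Recovered cells were compared with control-grown cells of passage 25 under DMSO, which again shares its control libraries with the response known beforehand. None of the 5 genes passed and 0% of all genes did (0 with edgeR, 146 at an unadjusted p under 0.05, 0 with DESeq2). Aox3 had log2 -0.73 ± 0.34 (unadjusted p = 0.0518), with 3.90 and 4.22 CPM against 8.75 and 4.63 CPM. Xdh had 0.57 ± 0.39, with 89.1 and 66.2 CPM against 45.3 and 59.5 CPM. The recovered cells lay below the control-grown cells for Aox3 and above them for Xdh, without overlap. How many of all genes separate in either direction here was not counted, so these positions are descriptions only. The log2 values of Nqo1, Nqo2 and Aox1 were -0.27, 0.03 and 0.03.

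With B[a]P present, Cr(VI)-grown cells had lower levels than control-grown cells at passage 20 for 4 of the 5 genes without overlap, as did 31.5% of all genes tested. These values are described only, because the control libraries are those of the known response. Aox3 had 1.82 and 1.20 CPM against 8.18 and 7.04 CPM (log2 -2.33 ± 0.36), the widest gap of the 5. Nqo1 (-0.62 ± 0.30), Aox1 (-0.59 ± 0.49) and Xdh (-0.46 ± 0.39) were also lower, and Nqo2 overlapped. Aox3, Aox1 and Xdh were lower without overlap at passage 20 with DMSO too, as were 25.2% of all genes. At passage 25 Aox3 was at -0.22 ± 0.33 and Nqo1 at -0.24 ± 0.30. The B[a]P effect in Cr(VI)-grown minus control-grown cells over both passages was -0.66 ± 0.34 for Aox3 and -0.29 ± 0.30 for Nqo1.

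**Figure D3:**
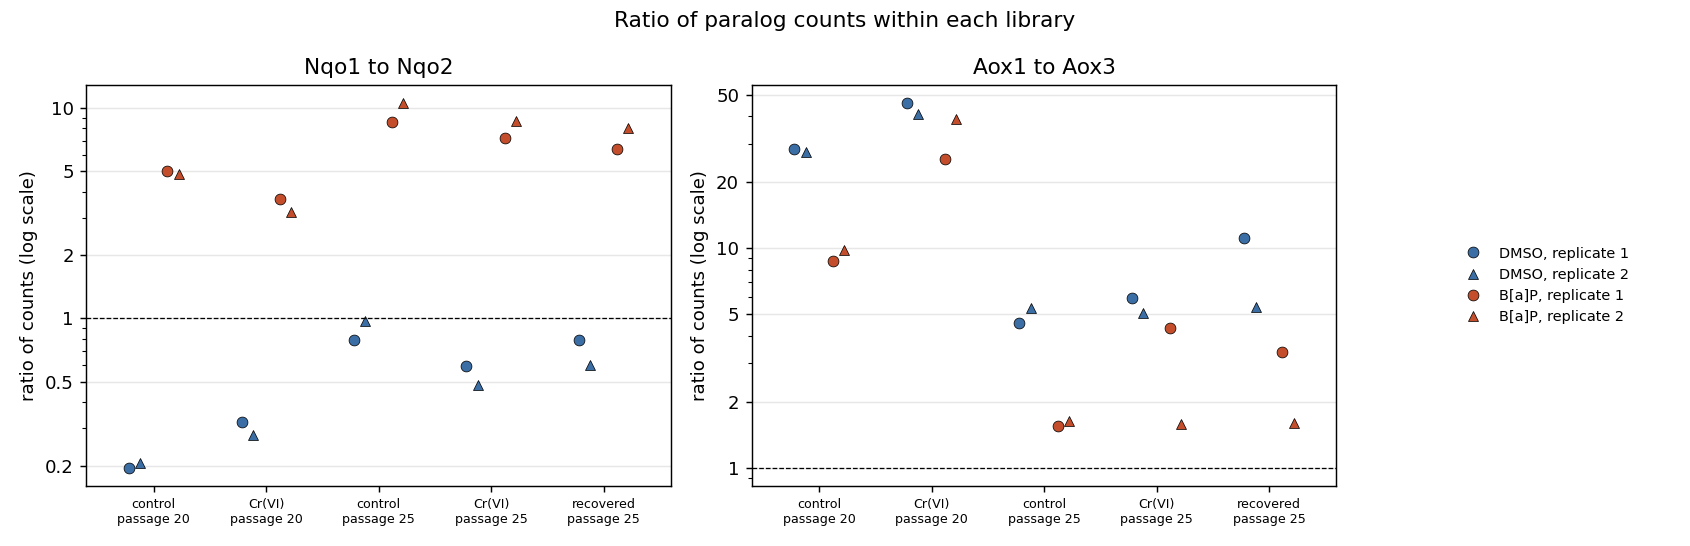
Ratio of counts of Nqo1 to Nqo2 and of Aox1 to Aox3 within each of the 20 libraries (log axes, dashed line at equal counts), with DMSO in blue and B[a]P in red. The Nqo ratio is below 1 in the DMSO libraries and 3.20 or more in the B[a]P libraries, while the Aox ratio is highest, 40.9 and 45.9, in Cr(VI)-grown DMSO cells of passage 20.

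The neighbours Aox1 and Aox3 did not keep a fixed proportion. With DMSO, Aox1 to Aox3 was 28.4 and 27.5 in control-grown and 45.9 and 40.9 in Cr(VI)-grown cells of passage 20. It was 4.57 to 11.2 in the 6 DMSO libraries of passage 25. With B[a]P it was 8.71 and 9.85 in control-grown and 25.6 and 38.9 in Cr(VI)-grown cells of passage 20, and 1.55 to 4.31 at passage 25. Aox1 thus had more counts in every library, by the least in B[a]P-treated cells of the later set.

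Levels of different genes were compared as CPM per kilobase of transcript. In control-grown DMSO cells of passage 20 the order was Nqo2 (18.4 ± 0.05, SD, n = 2), Xdh (11.8 ± 0.65), Nqo1 (9.10 ± 0.27), Aox1 (8.13 ± 0.41) and Aox3 (0.280 ± 0.020), and no neighbours in that order overlapped. In recovered B[a]P cells it was Nqo1 (284 ± 2.2), Xdh (81.9 ± 2.5), Nqo2 (16.1 ± 2.7), Aox1 (12.9 ± 5.5) and Aox3 (5.10 ± 0.42), and Nqo2 and Aox1 did not differ beyond their spread. Nqo2 has a long transcript for its coding length, 3842 bases with 693 coding. Per kilobase of coding sequence its mean over the 20 libraries was 89.2, above the 37.2 of Xdh, whereas per kilobase of transcript it was 16.1, below the 32.4 of Xdh.

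Genes of the same pathways were taken from lists that were chosen with earlier results of these data known. Their counts and medians are therefore descriptions and no test of enrichment. The medians are given beside that of all genes. In Cr(VI)-grown cells with B[a]P, 4 of 11 tested AHR battery genes passed, all higher, with a median log2 fold change of 2.31 against 0.02 for all genes. They were Cyp1a1 (5.14 ± 0.35) and Cyp1a2 (2.54 ± 0.25), which encode cytochromes P450 that oxidise aromatic hydrocarbons, the aldehyde dehydrogenase gene Aldh3a1 (3.04 ± 0.55) and Tnfaip2 (2.89 ± 0.35). Nqo1 at 3.62 lay below Cyp1a1 and above the other 10, and Xdh at 1.96 lay within the list. In recovered cells 2 of 11 passed, Cyp1a1 (5.78 ± 0.51) and Cyp1a2 (3.01 ± 0.36), with a median of 2.84 against 0.03. Aldh3a1 (3.88 ± 0.80) and Cyp1b1 (3.04 ± 0.97) did not pass there.

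Of 19 NRF2 target genes, 3 passed in Cr(VI)-grown cells with B[a]P, all higher, with a median of 0.38. They were Hmox1 (2.86 ± 0.39), the gene of an enzyme that breaks down heme, Osgin1 (2.08 ± 0.37) and Srxn1 (1.74 ± 0.29), which encodes sulfiredoxin. In recovered cells 0 of 19 passed with edgeR, with a median of 0.77, and the highest were Hmox1 (2.12 ± 0.54), Osgin1 (1.61 ± 0.51) and Srxn1 (1.55 ± 0.41).

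Other genes that act beside the 5 did not pass in either B[a]P comparison in the edgeR fit without a block. Of all genes tested, 0.941% passed in Cr(VI)-grown and 0.0558% in recovered cells. A count of 0 in lists this short therefore does not show a lack of response. The lists were not read with the replicate block or with DESeq2. For the molybdenum cofactor and other molybdenum enzymes it was 0 of 9, with medians of 0.19 in Cr(VI)-grown and -0.15 in recovered cells. Mocos, whose product adds the sulfur that XDH and the aldehyde oxidases need, had 0.79 ± 0.57 and 0.98 ± 0.80. The cofactor synthesis genes Mocs1 (0.71 ± 0.28) and Gphn (-0.62 ± 0.27) came next in Cr(VI)-grown cells, and in recovered cells Gphn had -1.12 ± 0.39 and the amidoxime reductase gene Mtarc1 -2.51 ± 1.04.

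For other quinone and carbonyl reductases it was 0 of 16, with medians of 0.10 and 0.09. The furthest from 0 were the aldo-keto reductase gene Akr7a5 (-0.60 ± 0.74) and the carbonyl reductase genes Cbr1 (0.53 ± 0.51) and Cbr4 (-0.42 ± 0.47) in Cr(VI)-grown cells, and Cbr3 (0.77 ± 0.72), Cbr1 (0.65 ± 0.73) and Dcxr (0.63 ± 0.85) in recovered cells. For purine breakdown and salvage around xanthine it was 0 of 9, with medians of 0.17 and 0.07. The guanine deaminase gene Gda, whose product makes xanthine, had 0.87 ± 0.51 and 0.42 ± 0.70. Beside it stood Aprt (-0.52 ± 0.81) and Pnp2 (0.40 ± 0.26) in Cr(VI)-grown cells, and Ada (-0.51 ± 0.65) and Ampd3 (0.45 ± 0.42) in recovered cells.

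The enzymes that remove superoxide and hydrogen peroxide, which XDH can release, gave 0 of 12, with medians of -0.22 and 0.02. The extracellular superoxide dismutase gene Sod3 had 1.25 ± 0.46 and 2.32 ± 0.67, and the catalase gene Cat 0.82 ± 0.23 and 0.99 ± 0.33. The lowest were the glutathione peroxidase genes Gpx4 in Cr(VI)-grown cells (-0.53 ± 0.73) and Gpx3 in recovered cells (-0.82 ± 0.60). Nicotinamide riboside and NADH supply gave 0 of 7, with medians of -0.03 and -0.08. Slc22a13 had 1.56 ± 0.82 and 1.11 ± 1.23, and Nmnat3, whose product makes NAD, -0.91 ± 0.51 and -0.66 ± 0.71.

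In the 4 comparisons in which no gene passed, the lists likewise gave 0. Between Cr(VI)-grown and control-grown cells with DMSO, where the median of all genes was -0.03, the medians were 0.51 for the NRF2 target genes (13 of 19 above 0), 0.47 for superoxide and hydrogen peroxide removal (8 of 12 above 0) and 0.25 for other quinone and carbonyl reductases (13 of 16 above 0). For the AHR battery it was -0.01. Purine breakdown and salvage had 0.09, the molybdenum list 0.08, and nicotinamide riboside and NADH supply -0.12. The 2 cholangiocyte markers tested had a median of 0.36. The share of all genes above 0 was not counted, so these medians are descriptions only. The comparison also holds the Cr(VI)-grown DMSO pair of passage 20, which differed by over 2-fold in 32.2% of genes.

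**Figure D4:**
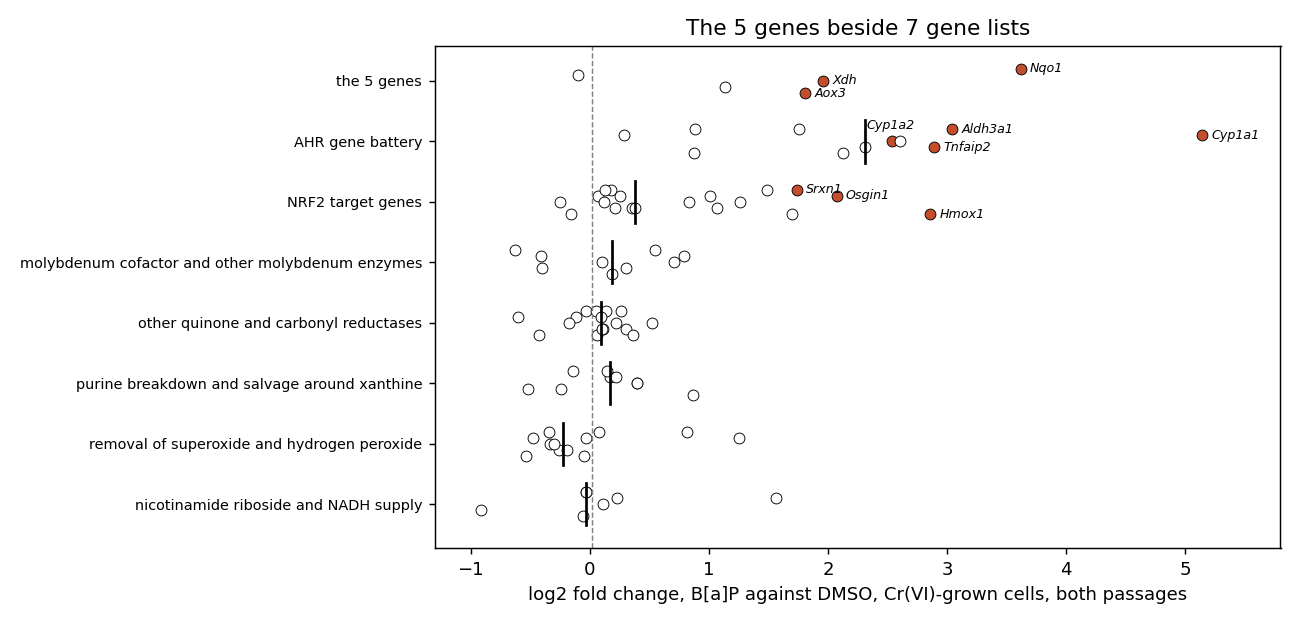
Log2 fold change with B[a]P in Cr(VI)-grown cells over both passages (x axis) for the 5 genes and 7 lists of related genes, with filled points where adjusted p was under 0.05, a bar at each list's median and a dashed line at the median of all genes tested (0.02). Called genes are in the top 3 rows, and Nqo1 (3.62) is second to Cyp1a1 (5.14) among those drawn.

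Genes most like each of the 5 were listed by Pearson's r of log2 CPM over the 20 libraries, as a description, since libraries of a set share their depth and makeup. For Nqo1 they were Ptpn14 (r = 0.97), Slc1a4 (0.96), Cyp1a1 (0.95), Tnfaip2 (0.93) and Aldh3a1 (0.93). For Xdh they were Tnfaip2 (0.96), Rnf39 (0.96), Arhgap10 (0.94), Foxo4 (0.94) and Tbc1d16 (0.94). Nqo1 and Xdh thus had Tnfaip2 in common among their first 5.

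For Aox1 they were Rfx5 (0.94), Lif (0.93), Lpar6 (0.93), Abhd18 (0.91) and Ccdc157 (0.90). For Aox3 they were Mturn (0.93), Vnn1 (0.93), Snn (0.93), Slc1a3 (0.92) and Trp53inp2 (0.92), and for Nqo2 Gipc2 (0.91), Nmi (0.87), Sptlc2 (0.85), Rpp14 (0.82) and Gatad1 (0.82). Of these likenesses, 12 were still among the first 5 after the mean of each library set was removed, and for Aox3 it was 1. Among the 5 genes themselves r was 0.91 for Nqo1 with Xdh, 0.56 for Aox1 with Aox3 and -0.32 for Nqo1 with Nqo2. After removal of set means these were 0.92, 0.87 and -0.23.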

How the data were processed

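RNA-seq read counts of 20 Hepa-1 libraries were deposited by the authors as raw counts per Entrez gene ID, 1 column per library. Per the submitters' processing notes the tools were TopHat, DESeq, bcl2fastq and CASAVA 1.8 and the build mm10, without a role for each. No source used here gives the counting program, its annotation or its strand setting. Symbols came from RefSeq (23275 of 23373 IDs), and 3210 IDs had no count.

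Genes were filtered with filterByExpr, scaled by TMM and fitted with edgeR 4.0.16 quasi-likelihood models (R 4.3.3), 1 mean per group over all 20 libraries, 10 residual degrees of freedom. Contrasts were two-sided with Benjamini-Hochberg adjustment over the 14343 genes, threshold 0.05. CPM uses TMM-scaled library sizes. The script was tested on simulated data. Alternatives were DESeq2 1.42.0, RLE size factors, no filter, a replicate block, fewer libraries and each library left out.

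The 5 genes and the lists were chosen with earlier results of these data known. Named genes were the 5, the 5 most alike by r for each, and, for the B[a]P comparisons, list members that passed or were among the 3 with the largest absolute change in their list, of which the text gives most.

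The replicate numbers were checked by correlating replicate differences between groups over genes. At passage 25 all 15 correlations were 0.81 to 0.92, so the numbers pair those libraries. SEs, intervals and calls given without mention of a block come from fits that leave this pairing out. At passage 20 the 6 correlations were -0.00 to 0.59 (median 0.20), and no pairing was shown.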

Additional observations from a re-analysis of the deposited data

Results flagged for a closer look

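Nqo1 with DMSO alone took opposite positions in the 2 library sets. Cr(VI)-grown cells lay above control-grown cells at passage 20 in both libraries (log2 0.58), and below them at passage 25 in both libraries (log2 -0.85). The difference between the passages was not tested, and passage and library set cannot be told apart. The share of all genes with such opposite positions was not counted. With 2 libraries in each group, no library was tested against the others of its own group.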

How the results depend on the processing

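Each called value of the 5 genes kept its direction under every alternative run. For B[a]P in Cr(VI)-grown cells 135 genes passed; it was 70 without the count filter, 1620 with the replicate block, 772 without the passage 25 replicate 2 libraries, 2 with only Cr(VI)-grown libraries in the fit, 470 with DESeq2, and 27 to 90 with 1 library left out. Of the 5 genes 3 passed, 1 with only those libraries in the fit (fewer samples), and 2 to 3 with 1 library left out. In recovered cells 8 genes passed, 215 with the block, 4 without the passage 25 replicate 2 libraries, 0 with only recovered libraries, 103 with DESeq2, and 0 to 5 with 1 left out. Of the 5 genes 2 passed, 1 without those replicate 2 libraries, 0 with only recovered libraries, and 0 to 1 with 1 left out. A block without the second passage 20 library of Cr(VI)-grown cells with DMSO, chosen after seeing the data, gave 1683 and 503 genes, and 266 for passage 25 minus passage 20, against 0 with the block over all libraries. Cr(VI)-grown against control-grown cells with DMSO gave 0 genes, 531 with the block and 14 with DESeq2. The block changed no other call of the 5 genes than those of Aox1 and Xdh given above. The cause of these shifts was not tested. Coding length from a protein table was not run. Coding length from GENCODE, chosen after seeing the data, moved levels, among them that of Nqo2 and the order of Nqo1 and Xdh given above. Low counts limit Aox3 at passage 20, with 14 to 53 counts in Cr(VI)-grown cells.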
